A study of Homo sapiens with 12 samples.

Results

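Chemokines and inflammatory cytokines are secreted proteins that recruit and activate immune cells, and 10 of their genes are described here: the CXC chemokines CXCL1, CXCL2, CXCL3, CXCL8, CXCL10 and CXCL11, the CC chemokines CCL2 and CCL5, and the interleukins IL6 and IL1A. They were taken by gene symbol from gene count tables that list 60106 genes for each of 12 RNA sequencing libraries, and each symbol matched 1 row. The libraries came from PC3 and VCaP, both established human prostate cancer cell lines derived from bone metastases, 72 h after transfection with an siRNA against FOXA1 (siFOXA1) or with a non-targeting siRNA (NSI), with 3 libraries in each of the 4 groups. PC3 cells grew in RPMI-1640, received 20 nM siRNA and were sequenced from polyadenylated RNA. VCaP cells grew in DMEM, received 40 nM siRNA and were sequenced from total RNA. An effect of the line, of the dose, of the medium, of the library kit and of strand use in counting cannot be told apart. Each line had 1 FOXA1 siRNA condition beside its control. No label says whether replicates came from separate cultures, so the p-values measure the spread between these libraries, which may be technical. By its title the study asked how FOXA1 affects splicing-related genes and splicing, and the chemokine genes are a further readout of the same libraries.

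FOXA1 is a forkhead transcription factor that opens chromatin in luminal prostate cells. CXCL1, CXCL2, CXCL3 and CXCL8 bind the receptor CXCR2 and attract neutrophils, and their transcription is classically driven by NF-kappaB. CXCL10 and CXCL11 bind CXCR3 on activated T cells and are induced by interferons through transcription factors of the STAT and IRF families. CCL2 draws monocytes through CCR2, and CCL5 draws T cells and monocytes. IL6 signals through IL6R and IL6ST to STAT3, and IL1A, an alarmin, signals through IL1R1 and MYD88 to NF-kappaB.

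Promoter letters of these genes are shown because the genes all rose in PC3 and are textbook targets of NF-kappaB and interferon signalling. A shared driver was not tested. RefSeq promoters (GRCh38.p14 table, 250 bases before to 50 after each start) were available for 8 of the 10 genes, CCL2 and CCL5 being the exceptions, and the 250 bases before each start matched GRCh37 exactly at 1 place. Motifs were searched on both strands of those 250 bases. The kappa-B consensus, the site of NF-kappaB, was found in 6 of these 8 genes (CXCL1, CXCL2, CXCL3, CXCL10, CXCL11 and IL6), against 9.96% of 35116 RefSeq promoters. The search took 1 strict pattern of 10 letters, so a site that departs from it counts as no match. CXCL1, CXCL2 and CXCL3 have nearly the same letters around the match, so their matches are not independent. In CXCL1, CXCL2 and CXCL3 the match reads on both strands, so that 2 matches overlap. The CXCL10 match nearer the start also reads on both strands, at the same bases. The windows below give 30 bases on GRCh37 with the match in capitals, each on the strand of its gene.
CXCL1, chr4:74735021-74735050, plus strand: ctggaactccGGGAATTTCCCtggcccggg
CXCL2, chr4:74964971-74965000, minus strand: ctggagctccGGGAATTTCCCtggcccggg
CXCL3, chr4:74904466-74904495, minus strand: ctggagctccGGGAATTTCCCtggcccggc
CXCL11, chr4:76957280-76957309, minus strand: gactcaaagaGGGAAATTCCtgtgccataa
IL6, chr7:22766736-22766765, plus strand: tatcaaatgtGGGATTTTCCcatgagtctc

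The CXCL1, CXCL2 and CXCL3 windows carry the same capital letters, first matched 79, 78 and 79 bases before the start. The AP-1 motif TGANTCA was found in 3 of the 8 genes searched (CXCL8, CXCL11 and IL1A), against 6.57% of promoters, and the forkhead motif TGTTTNC in 1 (IL1A), against 15.5%. The interferon-stimulated response element (TTTC, any pair of bases, TTTC) was found in 1, CXCL10, against 3.02%. The AP-1 window of CXCL8 and the forkhead window of IL1A follow.
CXCL8, chr4:74606138-74606167, plus strand: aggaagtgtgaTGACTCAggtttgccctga
IL1A, chr2:113542238-113542267, minus strand: ctggaatatctGCAAACAacaataatatca

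CXCL10 is shown over its whole 250 bases (chr4:76944651-76944900, minus strand), because it holds the response element and 2 kappa-B matches, in that order from the 5′ end, all in capitals.
CXCL10: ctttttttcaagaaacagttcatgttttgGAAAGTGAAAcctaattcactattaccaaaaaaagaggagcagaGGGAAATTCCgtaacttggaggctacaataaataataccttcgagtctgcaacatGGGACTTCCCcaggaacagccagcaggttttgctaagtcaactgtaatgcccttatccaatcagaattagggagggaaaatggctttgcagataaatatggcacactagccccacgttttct
A match is a description of letters and was tied to no binding measurement here.

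PC3 libraries held 123140099 to 188226483 counts and VCaP libraries 48187047 to 59839211. FOXA1, the siRNA target, fell in PC3 from 271 ± 30.03 to 169 ± 11.4 CPM (counts scaled per library size with TMM factors, mean ± SD, n = 3 each) and in VCaP from 489.7 ± 47.0 to 80.6 ± 6.19 CPM. This is a log2 fold change of −0.68 (edgeR quasi-likelihood adjusted p 0.0022, SE 0.10) in PC3 and −2.60 (SE 0.09, adjusted p 1.84e-07) in VCaP. The epithelial marker EPCAM was present in both lines, at 24.1 CPM in PC3 NSI and 167 CPM in VCaP NSI. The luminal marker KLK3 was at 69.4 CPM in VCaP NSI and at 0.00718 CPM in PC3 NSI, near 0.

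In PC3, each of the 10 genes rose after FOXA1 siRNA. The background was 13.9%, the share of the 26478 genes tested that were called higher at an adjusted p under 0.05, out of 27.7% called in either direction. All 3 siFOXA1 libraries lay above all 3 NSI libraries for all 10 genes, against 22.4% of the genes tested. Their median log2 fold change was 1.83, beside −0.01 over all genes tested. CXCL10, CXCL11, CCL2 and CCL5 reached the level of the low-count filter (0.0633 CPM, 10 counts in a library of median size) in every siFOXA1 library but not in every NSI library, so these 4 genes were tested because they were high in siFOXA1. In bulk RNA, more expressing cells and more RNA per cell cannot be told apart.

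The neutrophil-attracting chemokines CXCL1, CXCL2, CXCL3 and CXCL8 were already expressed in PC3 NSI. CXCL8 was at 11.1, 13.0 and 10.3 CPM in the NSI libraries and at 47.5, 52.9 and 56.1 CPM in the siFOXA1 libraries. The groups lay far apart, and the log2 fold change was 2.19 (edgeR quasi-likelihood adjusted p 8.54e-06, SE 0.12). CXCL1 was at 1.56, 2.46 and 1.62 CPM with NSI and 4.59, 6.33 and 4.72 CPM with siFOXA1, with replicate 2 the highest in both groups. It rose by 1.47 (SE 0.21, adjusted p 0.00153) on the log2 scale. CXCL3 was at 0.929, 0.711 and 0.817 CPM with NSI and 1.85, 2.27 and 1.69 CPM with siFOXA1, a rise of 1.24 (SE 0.18, adjusted p 0.00159). CXCL2 had the smallest change of the 10 genes, 0.90 (SE 0.14, adjusted p 0.00259). Its NSI libraries were at 5.62, 5.88 and 5.33 CPM and its siFOXA1 libraries at 10.6, 12.4 and 8.48 CPM. CXCL1, CXCL2 and CXCL3 are close paralogs. Their exons shared no exact stretch of 50 bases or more with another place in GRCh37, but fragments that matched several genes were divided among them, so small amounts may be exchanged.

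CXCL10 and CXCL11, the ligands of CXCR3, were close to 0 in PC3 NSI and rose the most steeply among the CXC members. CXCL11 had 1, 8 and 23.5 counts (0.00678, 0.0575 and 0.132 CPM) in NSI and 863.5, 699 and 858.5 counts (5.15, 5.56 and 4.96 CPM) in siFOXA1. Its log2 fold change of 6.22 (quasi-likelihood adjusted p 3.66e-05, SE 0.44) was the largest of the 10 genes. CXCL10 had 2, 0 and 28 counts with NSI and 212, 148 and 197 counts with siFOXA1, or 1.26, 1.18 and 1.14 CPM. NSI replicate 3 carried nearly all of the NSI counts of CXCL10. The rise was 4.26 (SE 0.70, adjusted p 0.00291) with that library and 7.25 without it. For CXCL11 the value without NSI replicate 3 was 7.33.

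Both CC chemokines rose from a level near 0 in PC3. CCL5 had 2.86, 3 and 15.5 counts with NSI and 130.09, 130.17 and 152.43 counts with siFOXA1, a log2 fold change of 4.26 (quasi-likelihood adjusted p 0.000275, SE 0.43) that became 5.36 without NSI replicate 3. The same library was thus the high NSI library for CXCL10, CXCL11 and CCL5. Of the exonic bases of CCL5, 22.1% lie in exact repeats of 50 bases or more found elsewhere in GRCh37, so its divided counts are uncertain. The share of its counts that this affects was not measured. CCL2 remained rare. It had 0, 1 and 1 counts with NSI and 16.5, 10 and 11 counts with siFOXA1, which is 0.101, 0.0795 and 0.0635 CPM. The ratio of the summed counts per library size was 20.3, with an exact 95% interval of 5.26 to 174.1 that covers counting error alone. The fitted log2 fold change of CCL2, 4.02 (SE 0.71, adjusted p 0.00411), depends on the prior count.

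The interleukins rose less. IL6 was at 2.05, 1.96 and 2.27 CPM in PC3 NSI and at 4.31, 4.36 and 4.61 CPM with siFOXA1, with tight groups and a log2 fold change of 1.08 (quasi-likelihood adjusted p 0.000391, SE 0.12). Exons of the antisense gene AC073072.5 overlap 25.0% of the exonic bases of IL6, and the PC3 counts ignored strand, so reads of the pair cannot be told apart there. IL1A was at 1.31, 1.26 and 0.992 CPM with NSI and 3.24, 3.12 and 2.60 CPM with siFOXA1, a rise of 1.33 (SE 0.16, adjusted p 0.00068). For both interleukins the lowest siFOXA1 library was above the highest NSI library.

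**Figure D1:**
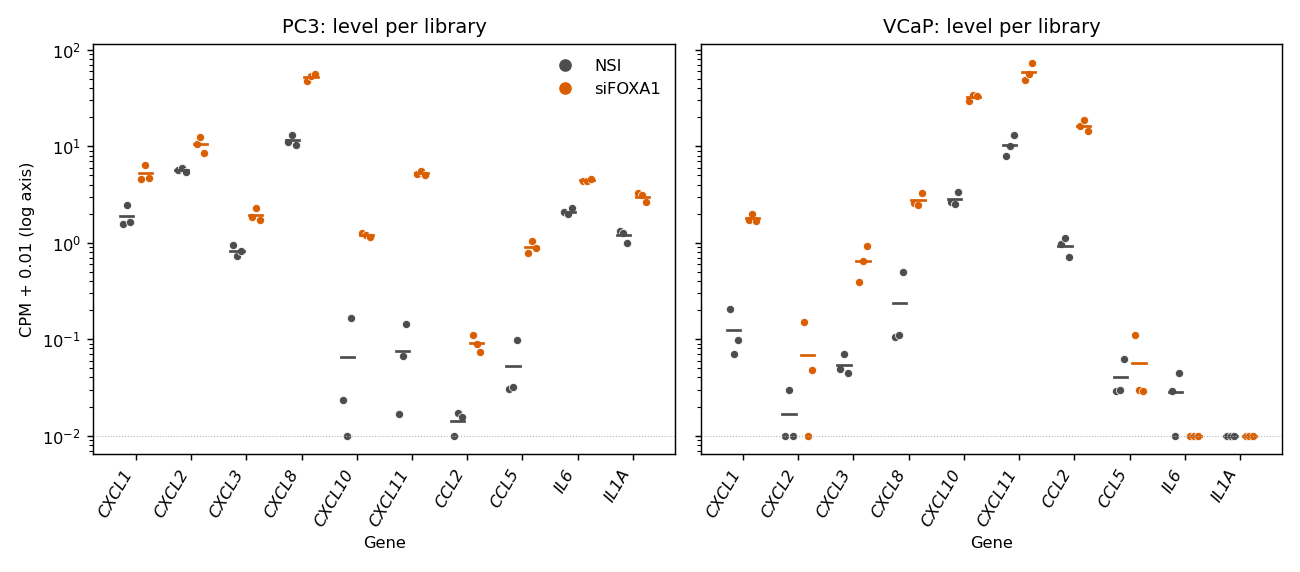
Level of each gene in each library, in CPM plus 0.01 on a log axis, in PC3 (left) and VCaP (right). Grey points are NSI libraries, orange points are siFOXA1 libraries, short bars are means of 3 libraries, and the dotted line is 0 CPM. Orange points lie above all grey points for all 10 genes in PC3 and for 6 of 10 in VCaP.

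In VCaP, 6 of the 10 genes passed the low-count filter (0.197 CPM), and each of the 6 rose: CXCL1, CXCL3, CXCL8, CXCL10, CXCL11 and CCL2. The background was 22.5% of 22939 genes called higher, 45.8% were called in either direction, and genes with all siFOXA1 libraries above all NSI libraries made up 27.9% of the genes tested. CXCL1, CXCL3 and CXCL8 passed the filter through their siFOXA1 libraries. The median log2 fold change over the 6 genes was 3.67, beside 0.02 over all genes tested. CXCL2, CCL5, IL6 and IL1A were under the filter.

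The CXCR3 ligands and CCL2 were the abundant members in VCaP. CXCL11 was at 7.95, 9.98 and 12.9 CPM with NSI and at 48.7, 55.7 and 73.5 CPM with siFOXA1, a log2 fold change of 2.52 (edgeR quasi-likelihood adjusted p 7.55e-06, SE 0.19). CXCL10 was at 2.60, 2.53 and 3.37 CPM with NSI and 29.2, 33.7 and 33.2 CPM with siFOXA1, a rise of 3.49 (SE 0.12, adjusted p 1.30e-07). Replicate 3 had the highest NSI value of both genes, yet every siFOXA1 library was well above it. CCL2 was at 0.963, 1.10 and 0.695 CPM with NSI and 16.0, 18.5 and 14.5 CPM with siFOXA1. Its log2 fold change of 4.16 (SE 0.16, adjusted p 2.48e-07) was the largest of the 6.

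Of the neutrophil-attracting chemokines, CXCL1, CXCL3 and CXCL8 rose in VCaP from a few counts, and CXCL2 was not tested. CXCL1 had 10, 3 and 5 counts with NSI and 86, 98 and 87 in siFOXA1, a log2 fold change of 3.94 (quasi-likelihood adjusted p 6.69e-06, SE 0.29). CXCL3 had 2, 3 and 2 counts with NSI and 19, 32 and 48 in siFOXA1, a rise of 3.81 (SE 0.49, adjusted p 0.000201). The siFOXA1 libraries of CXCL3 were themselves spread, with replicate 3 the highest. CXCL8 had 5, 5 and 28 counts with NSI and 130, 123 and 171 in siFOXA1. It rose by 3.54 (SE 0.41, adjusted p 0.000108), or by 4.78 without NSI replicate 3, the library with 28 counts.

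Counts of the other 4 genes in VCaP were at the edge of detection. CXCL2 had 0.25, 1 and 0 counts with NSI and 7, 0 and 2.25 in siFOXA1, and 1 siFOXA1 library was at 0, so the groups overlapped. The ratio of its summed counts was 9.30, with an exact 95% interval of 1.29 to 407.7. This interval and the next cover counting error alone, not the spread between libraries. CCL5 had 1, 1.14 and 3 counts with NSI and 5.33, 1.33 and 1 in siFOXA1, a ratio of 1.65 (exact 95% interval 0.477 to 6.42) with overlapping groups. IL6 had 1, 0 and 2 counts with NSI and 0 in each siFOXA1 library, and IL1A had 0 in all 6 libraries. Over a group, 0 counts allow a level of up to 3 counts, or 0.0188 CPM with NSI and 0.0195 CPM with siFOXA1, so a change of IL6 or IL1A was not detectable at this depth.

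**Figure D2:**
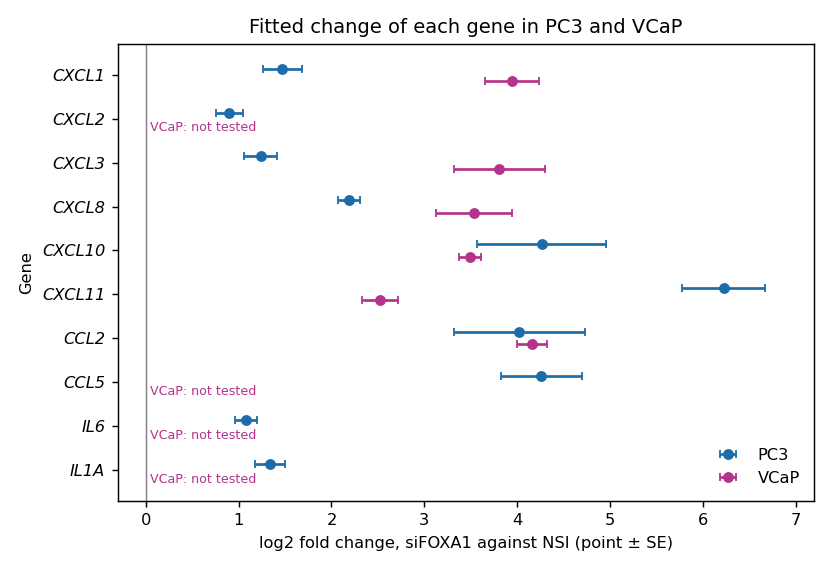
Fitted log2 fold change of siFOXA1 against NSI (horizontal axis) for each gene, with its standard error, in PC3 (blue) and VCaP (magenta), 3 libraries per group. All fitted values are above 0, from 0.90 for CXCL2 to 6.22 for CXCL11 in PC3, and 4 genes were not tested in VCaP.

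Of the 10 genes, 6 rose in both lines, against 4.57% of the 19282 genes tested in both. Each of the 6 passed the filter in one line through its siFOXA1 libraries (CXCL10, CXCL11 and CCL2 in PC3, CXCL1, CXCL3 and CXCL8 in VCaP), so the filter fixes part of this count. Whether the response differed was tested by the interaction in a fit of all 12 libraries, as the VCaP change minus the PC3 change. It was called for 6 of the 10 genes, 3 in each direction, against 22.1% of 30450 genes. Of the 4 neutrophil-attracting chemokines, 3 had a called difference with the larger change in VCaP. CXCL3 differed by 2.59 (edgeR quasi-likelihood adjusted p 0.00241, SE 0.53), CXCL1 by 2.47 (SE 0.42, adjusted p 0.0005; 3.06 without VCaP NSI replicate 1) and CXCL8 by 1.34 (SE 0.41, adjusted p 0.0293). The CXCL8 call was lost without PC3 siFOXA1 replicate 1 (1.23, adjusted p 0.0615), VCaP NSI replicate 1 (0.97, adjusted p 0.127), VCaP NSI replicate 2 (0.99, adjusted p 0.124), and also without VCaP siFOXA1 replicate 3 (1.20, adjusted p 0.0692). Without VCaP NSI replicate 3 it was 2.61. These 3 genes started from a lower level in VCaP NSI than in PC3 NSI, and their siFOXA1 levels remained lower in VCaP, in CPM of libraries made with different kits.

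CXCL11 had the larger log2 change in PC3, by −3.69 (quasi-likelihood adjusted p 2.74e-05, SE 0.45), or −4.87 without PC3 NSI replicate 3. It started from 0.0653 CPM in PC3 NSI and 10.3 CPM in VCaP NSI. With siFOXA1 it was at 5.22 CPM in PC3 and 59.3 CPM in VCaP, in libraries made with different kits. For CXCL10 the difference was −0.74 (SE 0.57, adjusted p 0.411), which was not called. Without PC3 NSI replicate 3 it was −3.75 (adjusted p 0.000283), so 1 library decides this value. CCL5 and IL6 were called, at −3.73 (SE 1.21, adjusted p 0.0385) and −5.15 (SE 1.60, adjusted p 0.0455), but both rest on the few VCaP counts given above. The CCL5 call was lost in 5 of 17 alternative fits, each without 1 VCaP library (NSI replicates 1, 2 and 3, siFOXA1 replicates 2 and 3), at adjusted p from 0.0619 to 0.259, and its value was −3.08 without VCaP NSI replicate 3, −4.87 without PC3 NSI replicate 3 and −4.92 without VCaP siFOXA1 replicate 1. The IL6 call was lost in 9 of 17, at adjusted p from 0.0504 to 0.253: with DESeq2 (−3.51), with no filter, without PC3 siFOXA1 replicate 1 or 3, without VCaP NSI replicate 1 or 3 (−4.31), and without each of the VCaP siFOXA1 replicates. For IL6 the 3 counts of VCaP NSI and 0 of siFOXA1 allow a ratio of up to 2.50 (exact 95% interval), while the ratio of the PC3 means was 2.11, so the size of −5.15 comes from a group at 0 counts. The CCL2 difference of 0.22 was not called. PC3 NSI held 2 counts of CCL2, and no comparison of the lines is read from it. CXCL2 differed by 2.09 (SE 1.34, adjusted p 0.312), not called, and ranged from 0.55 without VCaP siFOXA1 replicate 1 to 4.74 without VCaP NSI replicate 2. IL1A, with 0 counts in VCaP, gave no usable difference.

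Levels of different genes were compared per length, as TPM (transcript levels from counts divided by exonic length, scaled to the same total in every library). In PC3 NSI the order by mean TPM was CXCL8 (10.1), CXCL2 (8.13), CXCL1 (3.02), IL6 (2.16), CXCL3 (1.34) and IL1A (0.984). The libraries of neighbours in this order did not overlap. CXCL10, CXCL11 and CCL5 followed at 0.0859, 0.0606 and 0.0527 TPM with overlapping libraries, and CCL2 was last at 0.00668 TPM. In PC3 siFOXA1, CXCL8 was again first at 50.6 TPM, ahead of CXCL2 at 16.7 and CXCL1 at 9.23. CXCL11, at 5.32 TPM, was now level with IL6 at 5.02, their libraries overlapping. CXCL3 (3.49), IL1A (2.73), CXCL10 (1.97), CCL5 (1.22) and CCL2 (0.14) came after them, each apart from the next.

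VCaP had another order. In NSI, CXCL11 led at 4.49 TPM, before CXCL10 at 2.01 and CCL2 at 0.697, each apart from the next, and the other 7 genes were under 0.1 TPM. In siFOXA1, CXCL11 (23.6 TPM) and CXCL10 (20.9 TPM) overlapped, CCL2 stood at 11.2 TPM, and CXCL1 (1.24 TPM) and CXCL8 (1.05 TPM) overlapped. CXCL3 followed at 0.447 TPM. CXCL8, first in PC3, was thus far below the CXCR3 ligands in VCaP in both groups.

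The 6 CXC members lie on chromosome 4 in GRCh37, among 13 CXC chemokine genes, and each is annotated as protein-coding. CXCL8 (ENSG00000169429.10_3, 74606223 to 74609433, plus strand), CXCL1 (ENSG00000163739.4_2, 74735121 to 74736959, plus strand), CXCL3 (ENSG00000163734.4_2, 74902306 to 74904406, minus strand) and CXCL2 (ENSG00000081041.8_2, 74962752 to 74965010, minus strand) form one neighbourhood with CXCL6, PF4V1, PF4, PPBP and CXCL5. CXCL10 (ENSG00000169245.5_2, 76942270 to 76944650, minus strand) and CXCL11 (ENSG00000169248.12_3, 76954835 to 76962568, minus strand) lie next to CXCL9, which also binds CXCR3. CCL2 (ENSG00000108691.9_2, 32582304 to 32584222, plus strand) and CCL5 (ENSG00000271503.5_2, 34198495 to 34207797, minus strand) are on chromosome 17, IL6 (ENSG00000136244.11_4, 22765503 to 22771621, plus strand) on chromosome 7 and IL1A (ENSG00000115008.5_2, 113531492 to 113542167, minus strand) on chromosome 2. Some neighbours passed the filter in one line alone. CXCL5, which attracts neutrophils, rose in VCaP from 0.320 ± 0.0549 to 8.996 ± 0.575 CPM (SD, 3 libraries per group), with a log2 fold change of 4.80 (quasi-likelihood adjusted p 9.26e-08), and was at 0.00548 and 0.00584 CPM in PC3, under the filter. PF4, a platelet chemokine, rose in VCaP from 0.0325 to 6.30 CPM, a log2 fold change of 7.55 (adjusted p 4.08e-07), the largest among the other chemokine ligands. CXCL6 rose in PC3 from 0.580 to 1.64 CPM (1.51, adjusted p 0.0286) and was under the filter in VCaP.

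CXCL9 differed from CXCL10 and CXCL11 in VCaP. It was at 0.79, 0.877 and 1.25 CPM in VCaP NSI and 0.437, 0.497 and 0.419 CPM with siFOXA1, a fall of −1.11 (edgeR quasi-likelihood adjusted p 0.0035, SE 0.23). In PC3 it rose with its neighbours, from 0.0588 to 1.48 CPM (log2 fold change 4.62, adjusted p 8.79e-05). The difference between the lines was −5.74 (adjusted p 5.03e-07).

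**Figure D3:**
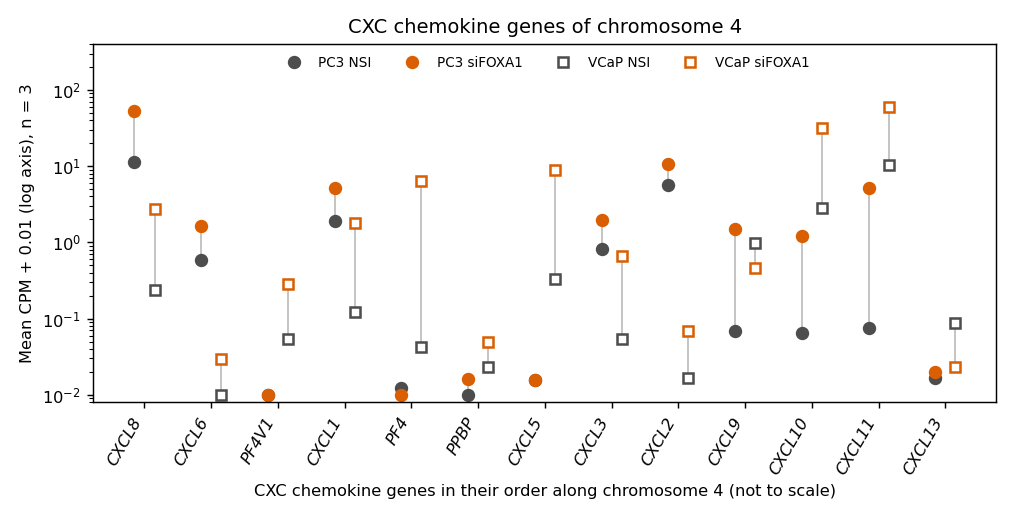
Mean CPM plus 0.01 (log axis, n = 3) of 13 CXC chemokine genes in their order along chromosome 4, not to scale. Filled circles are PC3, open squares VCaP, grey NSI and orange siFOXA1, with a line joining the groups of a line. CXCL9 is the tested gene whose VCaP squares are reversed, from 0.972 in NSI to 0.451 in siFOXA1, while CXCL10 and CXCL11 beside it rise in both lines.

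Beyond these 10 genes, 38 other chemokine ligands were listed. In PC3, 10 were tested, 7 rose and 0 fell, with a median log2 fold change of 1.45, beside the background of 13.9% higher. Of these 10, CXCL9 and CX3CL1 passed the filter through their siFOXA1 libraries. CX3CL1, which binds CX3CR1, rose from 0.0118 to 0.846 CPM (5.97, quasi-likelihood adjusted p 6.03e-05), CCL28 from 2.10 to 6.54 CPM (1.64) and CXCL16 from 9.36 to 22.0 CPM (1.23). CCL20, the ligand of CCR6, rose from 0.171 to 0.467 CPM (1.43, adjusted p 0.017). In VCaP, 6 were tested, 3 rose (PF4, CXCL5 and CXCL12) and 1 fell (CXCL9), beside a background of 22.5% called higher and 23.3% called lower. PF4 and CXCL12 passed the filter there through siFOXA1. CCL28 (−0.10) and CXCL16 (−0.22) were not called there.

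Of 22 chemokine receptors, 8 were tested in PC3, where 2 rose and 0 fell, and 5 in VCaP, where 3 rose and 0 fell. The backgrounds were 13.9% higher in PC3 and 22.5% in VCaP, and 1 of the 8 (CCR1) and 3 of the 5 (CCR2 among them) passed the filter through siFOXA1. CCR1, a receptor of CCL5, rose in PC3 from 0.0118 to 0.979 CPM (log2 fold change 6.19, quasi-likelihood adjusted p 4.81e-05). CCR2, the receptor of CCL2, rose in VCaP from 0.0518 to 1.91 CPM (5.18, adjusted p 6.22e-06). ACKR3, an atypical receptor that scavenges CXCL11 and CXCL12, rose in VCaP from 15.6 ± 3.04 to 77.6 ± 2.87 CPM (SD, 3 libraries per group), with a log2 fold change of 2.32 (adjusted p 1.13e-06). In PC3 ACKR3 was at 0.655 and 0.479 CPM (−0.44, adjusted p 0.163). CXCR4 was not called in PC3, at −0.26.

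Among 28 other inflammatory cytokines, 22 were tested in PC3, of which 12 rose and 0 fell, and 12 in VCaP, of which 4 rose and 2 fell, beside 13.9% of all genes higher in PC3 and 22.5% in VCaP. In PC3, 3 of the 22 passed the filter through siFOXA1, and in VCaP, 2 of the 12, IL15 among them, passed through NSI. IL1B, the secreted counterpart of IL1A, was at 42.7, 45.1 and 40.7 CPM in PC3 NSI and 157, 161 and 154 CPM with siFOXA1 (1.87, quasi-likelihood adjusted p 3.14e-06), and was at or near 0 in VCaP. IL1RN, the antagonist of the IL1 receptor, rose in both lines, by 1.51 and 2.07. TNFSF10, a death ligand, rose in PC3 from 1.49 to 34.5 CPM (4.53, adjusted p 5.78e-07) and in VCaP from 17.4 to 25.5 CPM (0.55). CSF1, a macrophage growth factor, rose in PC3 (1.89) and was not called in VCaP (0.36). The alarmin IL33 rose in both lines, by 4.48 in PC3 and, from 0.809 to 5.24 CPM, in VCaP, while IL15 rose by 3.00 in PC3 and had −1.47 in VCaP, a fall. LIF and IL18, both well expressed in PC3, were not called there, at −0.13 and 0.24.

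**Figure D4:**
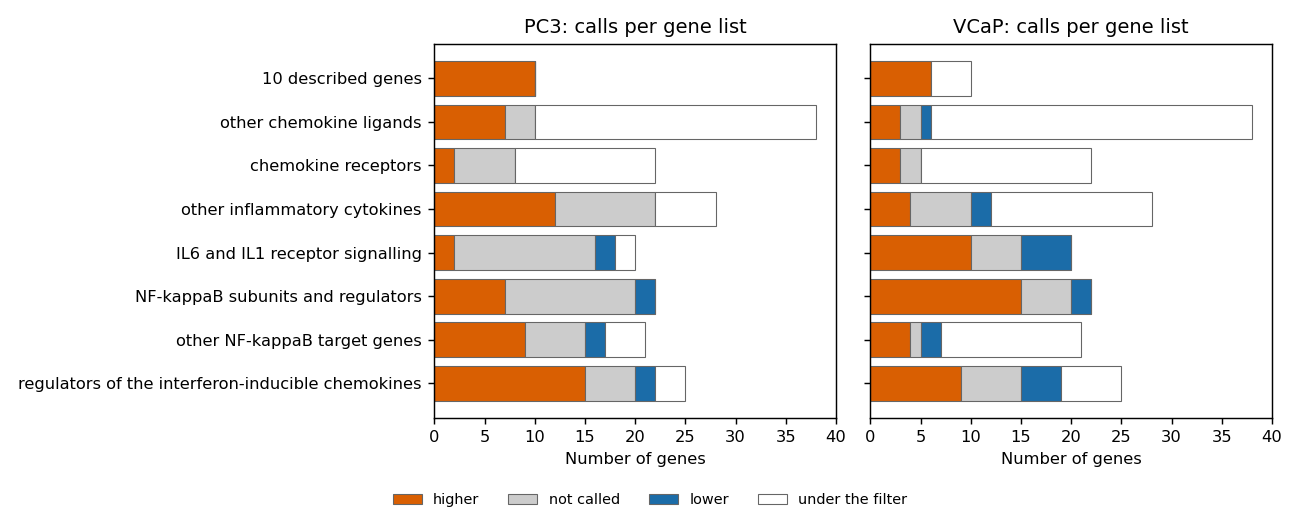
Number of genes in each list that were called higher (orange), called lower (blue), not called (grey) or under the filter (white), siFOXA1 against NSI, in PC3 (left) and VCaP (right). Of 38 other chemokine ligands, 10 were tested in PC3, where 7 were higher, and 6 in VCaP, where 3 were higher. Of 22 NF-kappaB subunits and regulators, all tested in both lines, 7 were higher in PC3 and 15 in VCaP. Over all genes tested, 13.9% were higher in PC3 and 22.5% in VCaP.

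The NF-kappaB system, which drives most of the 10 genes in textbooks, was listed as 22 subunits and regulators, all tested in both lines. In PC3, 7 rose and 2 fell, with a median log2 fold change of 0.06, and in VCaP, 15 rose and 2 fell, with a median of 0.41. The backgrounds were 27.7% called in either direction and 13.9% higher in PC3, and 45.8% and 22.5% in VCaP. The feedback inhibitor TNFAIP3 was at 1.36, 1.49 and 1.48 CPM in PC3 NSI and 4.92, 4.36 and 4.15 CPM with siFOXA1 (1.63, quasi-likelihood adjusted p 5.83e-05), and rose by 1.79 in VCaP. BIRC3, an ubiquitin ligase of the pathway, rose by 1.48 in PC3 and 2.04 in VCaP. NFKBIA, the inhibitor IkappaB-alpha, rose by 0.29 and 0.88. Among the subunits, NFKB1 fell in PC3 (−0.55) and rose in VCaP (0.49), RELB rose in VCaP (0.83), and RELA was not called in either line (−0.15 and 0.001). CHUK, a kinase subunit, fell in VCaP (−0.70).

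Other NF-kappaB target genes numbered 21. In PC3, 17 were tested, 9 rose and 2 fell, and in VCaP, 7 were tested, 4 rose and 2 fell, beside 13.9% and 22.5% of all genes higher. ICAM1, an adhesion molecule, rose in PC3 from 101.5 ± 5.48 to 222 ± 11.8 CPM (SD, 3 libraries per group; 1.13, quasi-likelihood adjusted p 5.53e-05) and in VCaP from 6.05 to 11.8 CPM (0.97). CFB, a complement factor, had the largest rise in PC3 (3.58). PTGS2, a prostaglandin synthase, rose in PC3 (1.64), and SOD2 rose in VCaP (0.61) and was not called in PC3 (0.08). EFNA1 fell in PC3 (−0.65) and PLAUR fell in VCaP (−0.73).

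Among 20 genes of IL6 and IL1 receptor signalling, 2 rose and 2 fell of 18 tested in PC3, and 10 rose and 5 fell of 20 tested in VCaP. Over all genes, 27.7% were called in either direction in PC3 and 45.8% in VCaP, so the PC3 count is near its background. In VCaP, 3 of the 20, IL1RL1 among them, passed the filter through siFOXA1. IL6R moved in opposite directions. It was at 48.0, 43.0 and 44.9 CPM in PC3 NSI and 25.5, 24.3 and 25.2 CPM with siFOXA1 (−0.86, quasi-likelihood adjusted p 0.000196), and rose in VCaP from 8.62 to 47.7 CPM (2.47, adjusted p 2.40e-07). IL1RAP, the shared chain of IL1 receptors, rose in PC3 (0.54) and fell in VCaP (−1.35). Tested between the lines, the differences were 3.31 for IL6R (adjusted p 8.64e-10) and −1.90 for IL1RAP (adjusted p 6.19e-07). MYD88 rose in PC3 (0.98), and IL1RL1, the receptor of IL33, rose in VCaP (4.47). The signal transducer IL6ST was not called in either line (0.31 and 0.01), nor was SOCS3 (−0.21 and 0.65). STAT3 was under the filter in PC3, at 0.0171 and 0.0105 CPM.

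Regulators of the interferon-inducible chemokines numbered 25, of which 22 were tested in PC3, where 15 rose and 2 fell (median 1.45), and 19 in VCaP, where 9 rose and 4 fell (median 0.06), beside 13.9% and 22.5% of all genes higher. IFNB1 and IFNL1 in PC3 and 1 gene in VCaP passed the filter through siFOXA1. IRF1 rose in PC3 from 19.2 ± 3.08 to 102.6 ± 2.89 CPM (SD, 3 libraries per group; 2.42, quasi-likelihood adjusted p 6.58e-06) and fell in VCaP (−0.44). The RNA sensors DDX58 and IFIH1 rose in PC3 by 3.59 and 3.62 and had −0.15 and 0.03 in VCaP, not called. IRF7 rose in PC3 (1.73) and was not called in VCaP (−0.12). IFNL1, an interferon gene, rose in PC3 from 0.0109 to 0.353 CPM (4.94, adjusted p 0.000581), and IFNB1 was at 0.00479 and 0.105 CPM there. The tested difference between the lines was −2.87 for IRF1 (adjusted p 1.43e-08) and −3.75 for DDX58 (adjusted p 6.03e-08). USP18, which dampens interferon signalling, rose in PC3 (3.05) and fell in VCaP (−0.94), while TMEM173, the adaptor STING, rose in both (1.12 and 2.46).

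**Figure D5:**
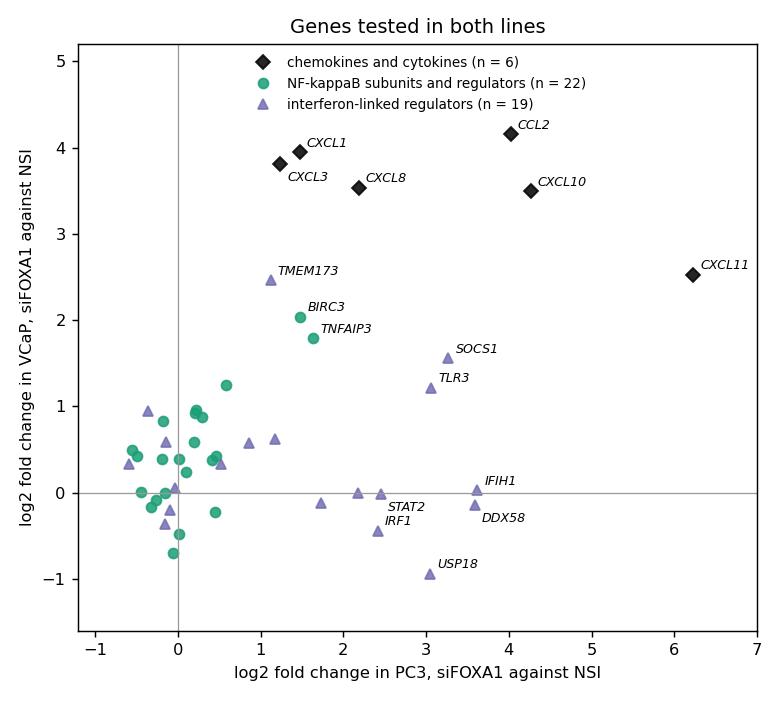
Log2 fold change in PC3 (horizontal) and VCaP (vertical) of genes tested in both lines: 6 of the 10 chemokine and cytokine genes (black diamonds), 22 NF-kappaB subunits and regulators (green circles) and 19 interferon-linked regulators (purple triangles), each point 1 gene from 3 against 3 libraries. The diamonds lie above 0 on both axes, from 1.24 (CXCL3) to 6.22 (CXCL11) in PC3 and from 2.52 (CXCL11) to 4.16 (CCL2) in VCaP. DDX58 and IFIH1 lie near 0 on the VCaP axis.

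Markers of immune and stromal cells were measured as well, since these cells secrete the same proteins. The summed level of 15 leukocyte markers was 28.5 to 31.7 CPM in PC3 NSI and 46.4 to 52.2 CPM with siFOXA1, and 1.27 to 1.71 and 3.04 to 3.91 CPM in VCaP. In PC3, 4 of 8 tested rose and 0 fell, and in VCaP, 1 of 2 rose and 0 fell. Over all genes tested, 13.9% were called higher and 13.9% lower in PC3, and 22.5% and 23.3% in VCaP. These shares also stand beside the stromal and luminal counts below. In PC3, 2 of the 8, PTPRC and FCGR3A, passed the filter through siFOXA1. CD68, a lysosomal protein that is not restricted to leukocytes, made up most of the PC3 sum (28.3 and 46.1 CPM), and CD14 most of the VCaP siFOXA1 sum (2.73 CPM, log2 fold change 1.96). The defining leukocyte gene PTPRC was at 0.0241 and 0.108 CPM in PC3 (2.16, quasi-likelihood adjusted p 0.0326) and 0.113 and 0.0196 CPM in VCaP. Of the 15 markers, 0 were without counts in PC3 NSI, 3 in PC3 siFOXA1, 4 in VCaP NSI and 6 in VCaP siFOXA1. The summed level of 9 stromal and endothelial markers was 27.0 to 30.4 CPM in PC3 NSI and 36.7 to 40.0 CPM with siFOXA1, where 2 of 7 tested rose and 2 fell. In VCaP it was 16.3 to 24.0 and 5.90 to 8.85 CPM, where 1 of 5 tested rose and 3 fell. Of 11 luminal prostate markers, 2 rose and 3 fell of 7 tested in PC3, and 0 rose and 6 fell of 11 tested in VCaP. Their summed level was 737.5 to 843.6 CPM in PC3 NSI and 635.5 to 667.8 CPM in PC3 siFOXA1, and 6378 to 6660.5 and 4609 to 5364 CPM in the VCaP groups. The part of these markers in the chemokine results was not tested.

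For each of the 10 genes the gene with the most similar profile was sought among the 30450 genes of the 12-library fit, by the root mean square difference of centred log2 CPM. CXCL10 and CXCL11 were each nearest to the other, at 0.865. CXCL8 was nearest to GBP3, an interferon-inducible GTPase, at 0.609, and CCL2 to GPNMB, a glycoprotein of macrophages and melanocytes, at 0.582. CXCL1, CXCL2 and CXCL3 were nearest to the unnamed transcripts RP11-482H16.1 (0.374), RP11-274B21.11 (0.523) and AC007743.1 (0.482). CCL5 was nearest to ERICH3 (0.505), IL6 to L3MBTL4 (0.327) and IL1A to RP11-122C5.3 (0.0936). Each value covers 12 libraries of 2 lines, so genes that are silent in one line and present in the other are alike by this measure whatever the siRNA did.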

How the data were processed

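The deposited values are estimated counts per gene (unit: expected counts) that the authors made by counting fragments with featureCounts, per the file headers, on the GENCODE v28lift37 basic annotation of GRCh37, using pairs with both ends mapped and dividing fragments that matched several places or genes. PC3 counts ignored strand and VCaP counts used the reverse strand, per the file headers. STAR 2.7.3a and Subread 2.0.0 are named in the submitters' processing notes. Groups and replicate numbers came from the sample titles.

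Counts were rounded and fitted per line with edgeR 4.0.16 (R 4.3.3) with TMM factors, filterByExpr (minimum count 10) and a two-sided quasi-likelihood test. Adjusted p is Benjamini-Hochberg over every gene tested, and a call is a value under 0.05. The standard error is the size of the log2 fold change divided by the square root of F. The lines were compared by the interaction in a fit of all 12 libraries. TPM used unrounded counts and exonic length. Fits were tested on simulated counts. Intervals and floors of 3 counts cover counting error only, and PCR copies are not independent molecules. DESeq2 1.42.0 and other settings were tried as alternatives. Replicate libraries differed by more than sampling noise (chi-square divided by its degrees of freedom, 9.77 to 141). Exact repeats were found with BLAST+ 2.17.0.

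The 10 genes, the 11 gene lists and the tests were chosen with earlier results of these data known. Named genes were these 10, FOXA1, 51 genes marked in the lists, the largest called rise and fall in each list and line, and the gene nearest in profile to each of the 10. The text gives a selection of them, and CXCL12, STAT2, STAT3, SOCS1, TLR3 and CD68, in the text or on a plot, were named after their values were seen. Some genes that the rule took are not reported here.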

Additional observations from a re-analysis of the deposited data

Results flagged for a closer look

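These results are listed because the change after FOXA1 siRNA differed between the lines by the interaction test (edgeR quasi-likelihood, VCaP minus PC3, log2 scale). FOXA1 itself differed by −1.94 (adjusted p 2.98e-07), a deeper fall in VCaP. CXCL1 differed by 2.47, CXCL3 by 2.59 and CXCL8 by 1.34, each with the larger rise in VCaP. CXCL11 differed by −3.69, with the larger log2 rise in PC3, where its NSI level was near 0. CCL5 differed by −3.73 and IL6 by −5.15, both with a rise in PC3 and fewer than 10 counts per VCaP group. IL6 had 0 counts in VCaP siFOXA1, so its size is not a measured fold. Dose, medium, library kit and strand use changed with the line and cannot be told apart from it.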

How the results depend on the processing

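All 10 genes in PC3 and all 6 tested in VCaP kept their rise and their call in each of 12 alternatives (replicate block, DESeq2, RLE or library-size scaling, no filter, a fit of all 12 libraries, and each library left out). The number of genes called in PC3 moved from 7344 to 11333 with the replicate block and ranged from 3963 to 7628 with 1 library left out (4738 without NSI replicate 3, 3963 without siFOXA1 replicate 1), and library size alone gave 4607 higher and 2562 lower, 64.3% higher against 50.04%. In VCaP it stayed between 8538 and 11474. Between the lines, 3 to 7 of the 10 genes were called with 1 library left out, 3 of them without VCaP NSI replicate 1 or VCaP siFOXA1 replicate 3. CXCL1, CXCL3 and CXCL11 kept their call in all 17 alternatives. The uncalled CCL2 difference turned to −0.15 with DESeq2 and ranged from −0.17 to 0.63 with 1 library left out, negative without PC3 NSI replicate 2 (−0.17) or 3 (−0.03). The cause was not tested. Same-numbered NSI and siFOXA1 libraries had correlated deviations across genes of 0.15, 0.31 and 0.095 in PC3 and 0.065, 0.037 and 0.28 in VCaP, not all over 0.1, so the numbers were not taken as pairs. The block changed no call of the 10 genes, within a line or between lines. CXCL2, CCL5, IL6 and IL1A had at most 10 counts per VCaP group and were under the filter, so the main VCaP fit tested no change of them.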
